A study of Mus musculus with 48 samples.

Results

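The hypoxia response genes described here are 33 mouse genes, picked by name as genes of the hypoxia-inducible factor (HIF) system and known targets of it. They were matched by symbol to the gene identifiers of 3 tables of read counts with 39017 genes each, and 31 of the 33 were kept because they had 10 or more counts in at least 4 libraries of a table. The other members were Hif3a, an alternative HIF subunit, with at most 2 counts in any library, and Car9, a carbonic anhydrase of the cell surface, with at most 8. The filter on low counts of the test passed 29 members on day 4 (not P4ha2 or Ankrd37), 31 on days 5, 6 and 9, and 30 on day 7 (not P4ha2).

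RNA was sequenced from 48 libraries of adult neural stem cells (NSCs), in 12 groups of 4. The cells came from the dentate gyrus of Hopx-CreERT2, Setd1a fl/fl, H2B-GFP mice aged 7 to 8 weeks, and were brought to quiescence with BMP4 and FGF2, each at 20 ng/ml. All groups carry the floxed alleles, the tamoxifen-inducible Cre driven from Hopx and the reporter, which Cre switches on. WT cultures received a lentivirus expressing GFP (Lenti-GFP), and KO cultures received a lentivirus expressing Cre and GFP (Lenti-Cre-GFP), to delete Setd1a, a histone H3K4 methyltransferase. WT and KO were harvested on days 4, 5, 6 and 9, and on day 7 after DMSO or after ORY-1001 (ORY), an inhibitor of the H3K4 demethylase LSD1. Loss of Setd1a, exposure to Cre and switching on of the reporter therefore came together and cannot be told apart. Not every cell of a culture was infected, so KO libraries also hold cells with intact Setd1a. By the study's methods virus was added on day 2 and the medium was renewed every 2 days. For the day 7 groups ORY or DMSO was given from day 2. The oxygen level and the hours from the last change of medium to each harvest were not given in the sources used here.

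HIF is a pair of proteins made of an alpha subunit (Hif1a or Epas1) and a beta subunit (Arnt or Arnt2). While oxygen is present, the prolyl hydroxylases Egln1, Egln2 and Egln3 mark the alpha subunit, and Vhl, the recognition part of a ubiquitin ligase, has it destroyed. When oxygen is low the alpha subunit is kept, enters the nucleus and switches on genes of glucose uptake and glycolysis, of mitochondrial turnover, of collagen modification and of vessel growth, and Egln1 and Egln3 themselves. Control of the alpha subunit is mostly at the protein, which was not measured here.

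The DNA before the starts of the 6 members with the largest rise in KO on day 6 that RefSeq's promoter table (GRCm38.p6) holds is shown first. Plod2 also belongs among them by its rise and is named only. Each sequence runs 5′ to 3′ along the gene from 250 bases before to 50 bases after the start, and capitals mark the core of the HIF binding element, ACGTG or GCGTG, on either strand (CACGT and CACGC on the other one). The places are Adm at chr7:110627407-110627706 (+ strand), Egln3 at chr12:54203825-54204124 (- strand), Hk2 at chr6:82774405-82774704 (- strand), Pdk1 at chr2:71872974-71873273 (+ strand), Ak4 at chr4:101419039-101419338 (+ strand), Ero1l at chr14:45318523-45318822 (- strand).
Adm: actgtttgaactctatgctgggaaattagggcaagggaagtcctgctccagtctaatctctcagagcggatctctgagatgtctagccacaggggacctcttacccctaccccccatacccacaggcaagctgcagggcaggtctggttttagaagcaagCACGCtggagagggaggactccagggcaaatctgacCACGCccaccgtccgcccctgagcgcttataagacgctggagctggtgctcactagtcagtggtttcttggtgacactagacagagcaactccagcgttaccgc
Egln3: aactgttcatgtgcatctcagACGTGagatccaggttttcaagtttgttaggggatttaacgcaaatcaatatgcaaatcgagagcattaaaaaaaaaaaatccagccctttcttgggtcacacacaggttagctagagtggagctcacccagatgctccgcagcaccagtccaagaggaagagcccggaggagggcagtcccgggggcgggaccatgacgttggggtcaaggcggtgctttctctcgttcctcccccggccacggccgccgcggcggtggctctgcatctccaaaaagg
Hk2: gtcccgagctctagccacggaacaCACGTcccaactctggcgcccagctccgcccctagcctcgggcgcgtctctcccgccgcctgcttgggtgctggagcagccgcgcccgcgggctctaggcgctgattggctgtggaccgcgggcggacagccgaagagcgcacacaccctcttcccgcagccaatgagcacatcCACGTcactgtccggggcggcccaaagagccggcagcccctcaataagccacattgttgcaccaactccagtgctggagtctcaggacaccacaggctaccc
Pdk1: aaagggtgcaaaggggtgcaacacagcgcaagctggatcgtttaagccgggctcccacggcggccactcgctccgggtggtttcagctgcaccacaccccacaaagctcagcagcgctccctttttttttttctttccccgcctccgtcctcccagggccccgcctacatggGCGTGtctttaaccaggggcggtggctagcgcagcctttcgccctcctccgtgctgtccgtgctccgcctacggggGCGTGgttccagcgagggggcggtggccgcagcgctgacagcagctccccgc
Ak4: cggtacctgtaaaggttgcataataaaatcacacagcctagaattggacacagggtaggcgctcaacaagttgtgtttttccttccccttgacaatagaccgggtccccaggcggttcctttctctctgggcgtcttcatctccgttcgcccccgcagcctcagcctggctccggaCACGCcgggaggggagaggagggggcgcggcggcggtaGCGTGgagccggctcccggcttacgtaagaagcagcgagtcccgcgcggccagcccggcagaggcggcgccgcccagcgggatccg
Ero1l: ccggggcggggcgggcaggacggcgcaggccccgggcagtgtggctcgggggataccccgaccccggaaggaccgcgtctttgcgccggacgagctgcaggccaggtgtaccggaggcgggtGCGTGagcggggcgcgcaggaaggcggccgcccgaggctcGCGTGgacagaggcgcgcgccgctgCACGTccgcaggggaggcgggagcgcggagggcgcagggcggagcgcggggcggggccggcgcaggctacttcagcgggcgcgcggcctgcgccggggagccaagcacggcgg

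In these windows Adm, Pdk1 and Ak4 each held 2 matches of GCGTG, Hk2 held 2 of ACGTG, Egln3 held 1 of ACGTG, and Ero1l held 1 of ACGTG and 2 of GCGTG. The table matched 29 of the 33 members. Of these, 25 (86.2%) had either motif, against 11836 of 27025 genes (43.8%), and 17 (58.6%) had ACGTG, against 19.7% of all genes. ACGTG overlaps the E-box CACGTG, which 7.24% of all promoters held and none of the 6 printed ones did. The median GC content was 65.3% in the members' windows and 52.7% in all, and both motifs hold a CG. A match describes these letters and is no evidence of binding.

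Total counts per library were 5811077 to 8396175 on day 4, 3137352 to 12374735 on days 5, 6 and 9, and 4265876 to 20588555 on day 7. Levels below are in CPM, the usual unit of counts relative to the scaled library total, differences are log2 fold changes with their standard errors (SE), and adjusted p-values are from edgeR's quasi-likelihood test with Benjamini-Hochberg adjustment over all genes tested, called at 0.05. On days 5, 6 and 9, libraries 1 and 3 and libraries 2 and 4 of a group lay closest to each other in 6 of 6 groups (chi-square per degree of freedom 1.79 to 2.40, against 2.89 to 8.70 for other pairs). They still differed by more than sampling noise, and counts of members called on these days are also given with these pairs summed to 2 libraries a group. How many of the 14063 genes then tested were called is given beside them. The study describes 4 independent cultures a group while the labels only number the libraries, so p-values measure the spread between these libraries. Setd1a had 0 to 65 counts a library and was called in none of the 6 comparisons of KO with WT. Its count covers the gene outside the floxed part as well, so it does not check the genotype. Reads of the Rosa26 transcript Gt(ROSA)26Sor, whose locus carries the reporter, were lower in KO in each of the 6 comparisons (log2 fold changes -0.26 to -0.54). Markers of astroglial stem cells were present (Sox2 74.9 to 240 CPM, Hopx 6.77 to 22.4 CPM). Cdh5 of endothelium, Cx3cr1 of microglia, Col1a1 of fibroblasts and Rbfox3 and Dcx of neurons stayed under 0.541 CPM in every library, but other genes of these lists did not. The summed level of 9 endothelial and mural genes was 15.9 to 72.8 CPM (7 of them with a mean under 1 CPM, Rgs5 14.2 to 67.9 CPM, Flt1 up to 8.00 CPM), and that of 6 neuronal genes 34.6 to 68.8 CPM (5 under 1 CPM, Prox1 32.9 to 68.2 CPM). The sums were lower for 6 microglial genes (0.389 to 7.56 CPM, 5 under 1 CPM) and 5 fibroblast genes (0.558 to 8.33 CPM, 4 under 1 CPM). The 5 oligodendrocyte lineage genes summed to 29.1 to 168 CPM (2 under 1 CPM, Olig1 13.6 to 135 CPM), with Sox10 at 0 in every library. In bulk libraries fewer cells of a kind and less RNA per cell cannot be told apart.

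On day 6 the hypoxia response genes were higher in KO than in WT. Of 31 members tested, 19 rose and 1 fell, where 13.1% of all 12549 genes tested were called, 6.69% as higher and 6.45% as lower. The median log2 fold change of the members was 0.41, and that of all genes was 0.00. In 17 members the 4 KO libraries lay above all 4 WT libraries, and in 1 they lay below (no overlap in 17.3% of all genes, 8.56% above and 8.73% below). With paired libraries summed, 13 of the 20 calls were left, all of them higher, beside 217 of 14063 genes (1649 of 12549 otherwise). Those lost were Hif1a, Gbe1, Bnip3l, Plod1, P4ha1, Vegfa and Zfp292.

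**Figure D1:**
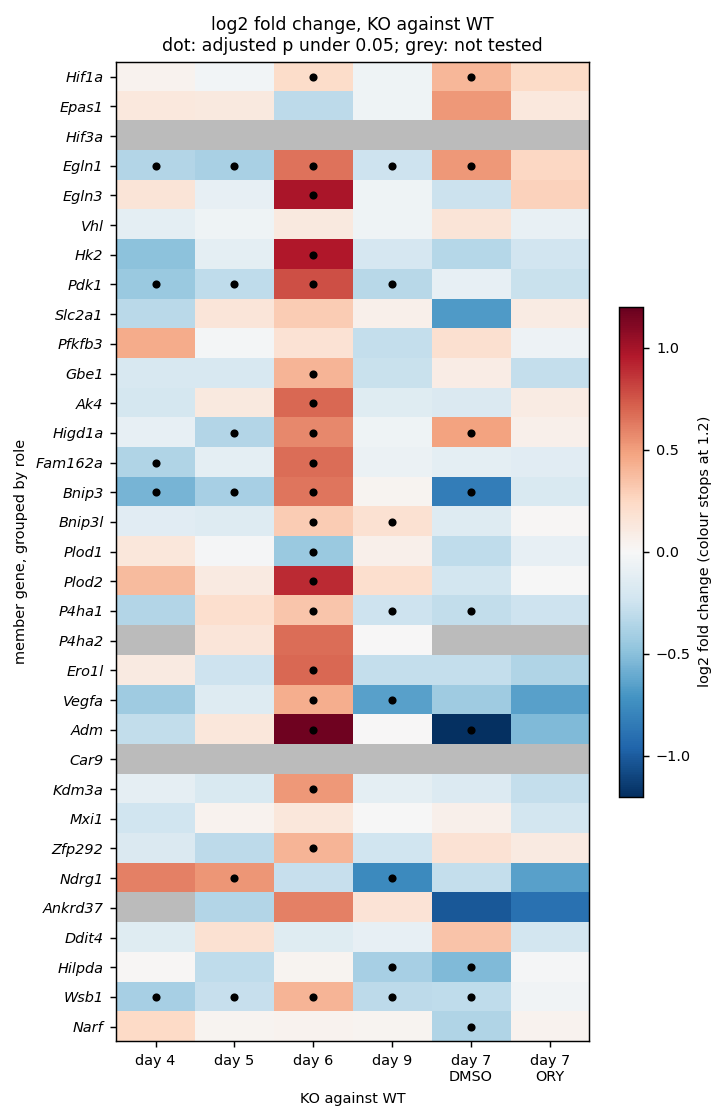
Log2 fold change of KO against WT for the 33 members (rows, grouped by role) in 6 comparisons (columns), where red is higher in KO, blue is lower, a dot marks an adjusted p under 0.05 and grey was not tested. The day 6 column holds 19 red dots and 1 blue one (Plod1), while the DMSO column holds 3 members called higher and 6 called lower, and the ORY column holds no dot.

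**Figure D2:**
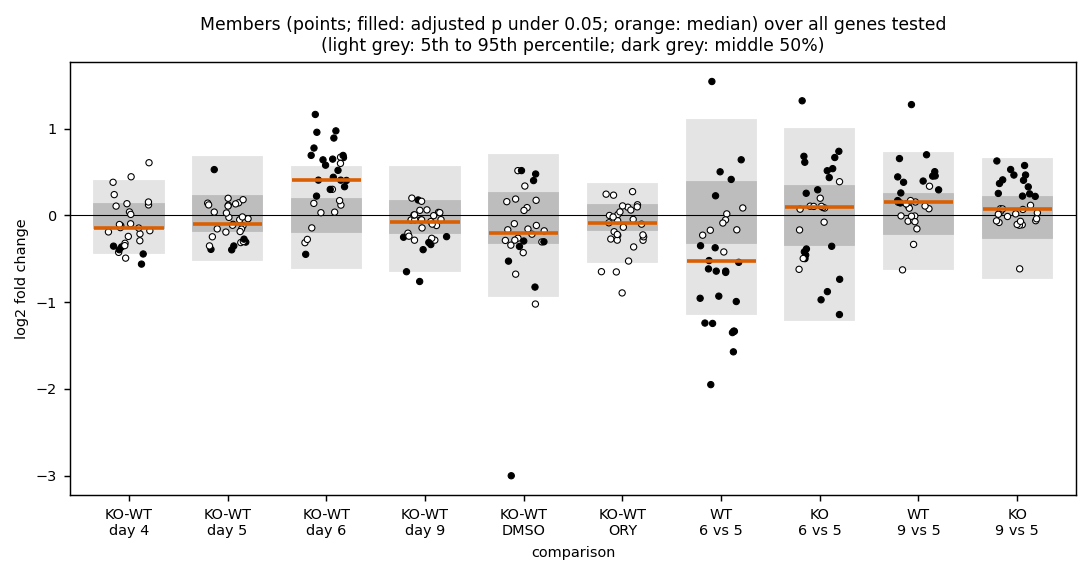
Log2 fold changes of the members tested (points, filled where adjusted p is under 0.05, orange line at their median) over the spread of all genes tested (grey boxes) in 10 comparisons. The orange line lies at 0.41 for KO against WT on day 6 and at -0.52 for WT on day 6 against day 5, and within 0.20 of 0 in the other 8.

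Among the oxygen sensors, Egln3, a prolyl hydroxylase that HIF itself induces, had 9.08, 11.6, 10.03 and 8.62 CPM in WT and 19.8, 21.5, 15.2 and 21.0 CPM in KO on day 6. Every KO library was higher than every WT library (log2 fold change 0.98, SE 0.14, edgeR adjusted p = 6.27e-06). Egln1, the main prolyl hydroxylase that marks Hif1a, had 78.1, 67.7, 68.2 and 67.2 CPM in WT and 112, 106, 113 and 110 CPM in KO. The groups lay far apart (0.65, SE 0.07, edgeR adjusted p = 1.46e-08). Vhl had 41.6, 40.8, 42.6 and 39.7 CPM in WT and 46.6, 47.2, 38.9 and 47.4 CPM in KO, where the third KO library fell below all of WT (0.12, SE 0.09, edgeR adjusted p = 0.438).

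The alpha subunits moved little. Hif1a had 103, 104, 103 and 105 CPM in WT and 128, 121, 126 and 110 CPM in KO on day 6, without overlap. The difference (0.22, SE 0.07, edgeR adjusted p = 0.0322) lost its call in 7 of 8 refits that each left out 1 library, with adjusted p of 0.0662 to 0.108, and at 0.149 after a correction for GC content and length. Epas1, the alpha subunit best known from endothelium, had 21.1, 21.9, 16.5 and 18.4 CPM in WT and 15.6, 17.95, 12.4 and 17.3 CPM in KO, with overlapping groups (-0.31, SE 0.15, edgeR adjusted p = 0.178).

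Of 8 members of glucose and mitochondrial metabolism, 6 rose on day 6. Hk2, an inducible hexokinase, had 13.9, 9.59, 12.6 and 12.2 CPM in WT and 22.2, 26.2, 21.6 and 25.1 CPM in KO. The KO mean of 23.8 ± 2.23 CPM (SD, n = 4) stood against 12.1 ± 1.80 CPM in WT, and no library crossed over (0.96, SE 0.13, edgeR adjusted p = 1.27e-06). Pdk1, a kinase that shuts pyruvate dehydrogenase, had 79.1, 84.5, 79.0 and 74.8 CPM in WT and 136, 136, 148 and 122 CPM in KO, all KO libraries being higher (0.78, SE 0.08, edgeR adjusted p = 7.94e-09). Ak4, a mitochondrial adenylate kinase, had 48.4, 43.0, 49.1 and 41.1 CPM in WT and 67.3, 78.5, 70.8 and 75.9 CPM in KO, again apart (0.69, SE 0.09, edgeR adjusted p = 6.33e-07). Fam162a, a mitochondrial protein known as a HIF target, rose from 166 to 180 CPM in WT to 271 to 285 CPM in KO (0.67, SE 0.05). Higd1a, which acts on the respiratory chain, rose from 165 to 190 CPM to 253 to 283 CPM (0.58, SE 0.06), and Gbe1, the glycogen branching enzyme, rose by 0.40 (SE 0.10). Slc2a1, the glucose transporter GLUT1 and a textbook HIF target, and Pfkfb3, which makes the activator of phosphofructokinase, did not pass the test (0.30, SE 0.20, and 0.17, SE 0.12).

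Both secreted members rose. Adm, the vasodilator peptide adrenomedullin, had 4.67, 5.53, 6.64 and 4.63 CPM in WT and 14.7, 10.2, 13.1 and 10.2 CPM in KO on day 6. Its lowest KO library was above its highest WT library (1.16, SE 0.19, edgeR adjusted p = 5.07e-05), the largest fold of the members on that day. Vegfa, the vessel growth factor, rose from 32.4 to 39.7 CPM in WT to 38.6 to 52.9 CPM in KO, with overlap in the third KO library (0.44, SE 0.10, edgeR adjusted p = 0.00186).

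Collagen and folding enzymes split. Plod2, a lysyl hydroxylase of collagen telopeptides, had 25.8, 23.1, 27.2 and 27.9 CPM in WT and 53.5, 48.2, 41.3 and 53.4 CPM in KO on day 6, far apart (0.89, SE 0.10, edgeR adjusted p = 2.12e-07). Ero1l, the oxidase that feeds disulfide bonds to the endoplasmic reticulum, rose by 0.69 (SE 0.12), and P4ha1, a prolyl 4-hydroxylase of collagen, by 0.33 (SE 0.08). Plod1, the lysyl hydroxylase of the collagen helix, was the only member to fall (-0.45, SE 0.12, edgeR adjusted p = 0.0134), with 33.7, 34.1, 30.7 and 33.5 CPM in WT and 18.3, 22.9, 23.8 and 30.3 CPM in KO. The fourth KO library nearly reached WT, and without the first one the call was lost (adjusted p = 0.0563). P4ha2 was at 0.553 to 2.40 CPM in these 8 libraries, and its difference of 0.67 had an SE of 0.56.

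Both mitophagy receptors of the outer mitochondrial membrane rose on day 6, Bnip3 from 181 to 200 CPM in WT to 287 to 324 CPM in KO (0.64, SE 0.05) and Bnip3l from 388 to 409 CPM to 460 to 514 CPM (0.30, SE 0.06). Kdm3a, an H3K9 demethylase that HIF induces, rose by 0.52 (SE 0.07), Zfp292, a zinc finger protein, by 0.41 (SE 0.13), and Wsb1, a substrate receptor of a ubiquitin ligase, by 0.41 (SE 0.05). The call of Zfp292 was lost without KO library 2 or 4 or WT library 2 or 4 (adjusted p = 0.0893 to 0.162). Mxi1, Ndrg1, Ankrd37, Ddit4, Hilpda and Narf were not called on day 6, with log2 fold changes from -0.28 (Ndrg1) to 0.60 (Ankrd37, SE 0.29).

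The day 6 groups also differed in transcripts of cycling cells, while proliferation itself was not measured on that day. The summed level of 6 genes of cycling cells was 92.8 to 110 CPM in KO and 142 to 150 CPM in WT on day 6, against 310 to 330 and 319 to 357 CPM on day 5. None of the 6 was at 0, and the part of this sum in the members' difference was not tested. The oligodendrocyte lineage sum overlapped on day 6 (33.3 to 48.1 CPM in KO, 37.7 to 44.5 CPM in WT). Reads in stretches shared with opposite-strand genes cannot be told apart by strand, because the library method keeps none. How such reads were counted was not examined. The share of exonic length so overlapped was 22.5% in Higd1a, 22.3% in Bnip3, 19.8% in Fam162a and 26.4% in Ankrd37, and at most 9.29% in the others.

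Read across time, the day 6 difference came with a dip in WT that was shallower or missing in KO. From day 5 to day 6, 18 of 31 members fell and 5 rose in WT, with a median of -0.52 against 0.02 for all genes. In KO, 9 fell and 10 rose, with a median of 0.09. These are large background shifts, since 44.1% of all genes were called in WT and 43% in KO. The summed level of 10 radial glia and astroglia genes moved too, from 17890 to 18662 CPM on day 5 to 12072 to 12480 CPM on day 6 in WT, and its part was not tested. Counted by 2 days from the start, a change of medium falls on days 4 and 6 and none on days 5, 7 and 9, so day and feeding cannot be told apart in these changes. The difference between the changes (the interaction of genotype and time) was positive in 17 members and negative in 1, with 12.6% of all genes called (7.48% positive) and a members' median of 0.60 against -0.02. Comparisons of day 6 share its libraries with those above, so these counts are no separate evidence. With pairs summed, 22 members were called in WT and 16 in KO, beside 3765 and 3710 of 14063 genes. The WT call of Bnip3l and the KO calls of Vhl, Ero1l and Slc2a1 were lost. Of the interactions 11 were left with pairs summed, all positive, beside 187 of 14063 genes.

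**Figure D3:**
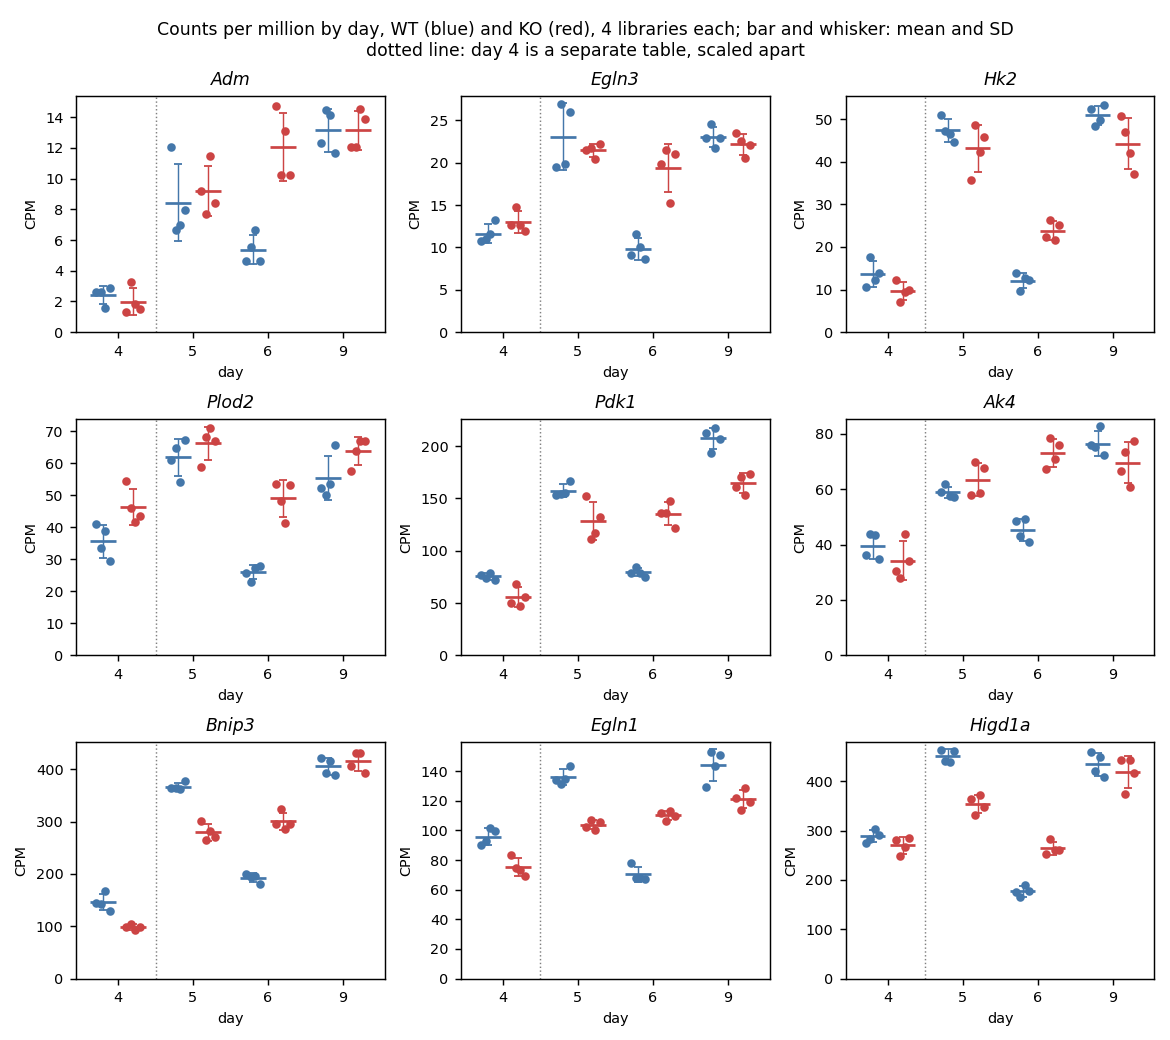
CPM (vertical axis) of 9 members in each WT (blue) and KO (red) library by day, with mean and SD, where day 4 was counted and scaled in a table of its own. On day 6 the blue points of all 9 drop below those of day 5, and the red points lie above the blue ones.

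Hk2 shows the dip. Its mean was 47.3 ± 2.69 CPM on day 5, 12.1 ± 1.80 on day 6 and 50.9 ± 2.21 on day 9 in WT (SD, n = 4), and 43.1 ± 5.58, 23.8 ± 2.23 and 44.3 ± 5.92 CPM in KO. WT fell by 1.95 and KO by 0.88 on the log2 scale, and the interaction was 1.07 (SE 0.16, edgeR adjusted p = 2.51e-05). Pdk1 fell in WT and not in KO, from 153, 155, 155 and 166 CPM on day 5 to the day 6 levels above in WT, and from 152, 111, 117 and 132 CPM to a KO range that overlaps them. The changes were -0.99 (SE 0.08) in WT and 0.09 (SE 0.07) in KO, and the interaction was 1.08 (SE 0.11, edgeR adjusted p = 7.27e-09). Egln1, Egln3 and Bnip3 had interactions of 1.04 (SE 0.09), 1.08 (SE 0.19) and 1.04 (SE 0.07), and each fell in WT (-0.95, -1.25 and -0.93) with no call in KO (0.09, -0.17 and 0.11).

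Members called lower on day 6 in WT and also in KO were Epas1, Hif1a, Higd1a, Hk2, P4ha1, Pfkfb3, Plod2, Slc2a1 and Vegfa. The alpha subunits were among those whose fall did not differ by the test. Hif1a fell by 0.62 in WT and by 0.36 in KO (interaction 0.26, SE 0.10, edgeR adjusted p = 0.0809). Epas1 fell by 0.54 in WT and by 0.97 in KO (interaction -0.43, SE 0.21, edgeR adjusted p = 0.173). Ero1l and Fam162a fell in WT and rose in KO, and Gbe1, Kdm3a, Vhl and Zfp292 rose in KO with no call in WT. Of these KO calls, those of Vhl and Ero1l were each lost in 5 of 8 refits that left out 1 library (adjusted p up to 0.0850 and 0.162), that of Ero1l also with the correction for GC content and length (0.0842), and both with library size only (0.0579 and 0.0679) and with no filter (0.0944 and 0.0626). The fall of Slc2a1 in KO was lost without KO day 5 library 1 or 3 or KO day 6 library 4 (up to 0.172), with edgeR's current test (0.0792) and with that correction (0.0858). Wsb1 went the other way from most, rising by 0.64 in WT and by 1.32 in KO. Ndrg1, a stress-responsive protein of the NDRG family, had the only negative interaction (-0.81, SE 0.19, edgeR adjusted p = 0.00326), rising by 1.54 in WT and by 0.74 in KO. With the replicate number as a block in the fit, Kdm3a was also called lower in WT (-0.17, adjusted p = 0.0505 without and 0.0406 with it), as were Ak4 (0.0566 and 0.0441) and Ankrd37 (0.0502 and 0.0460) in KO, Ak4 as higher and Ankrd37 as lower. Without WT day 5 library 1, the fall of Adm in WT (-0.64, SE 0.20) became -0.45 (adjusted p = 0.0724).

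**Figure D4:**
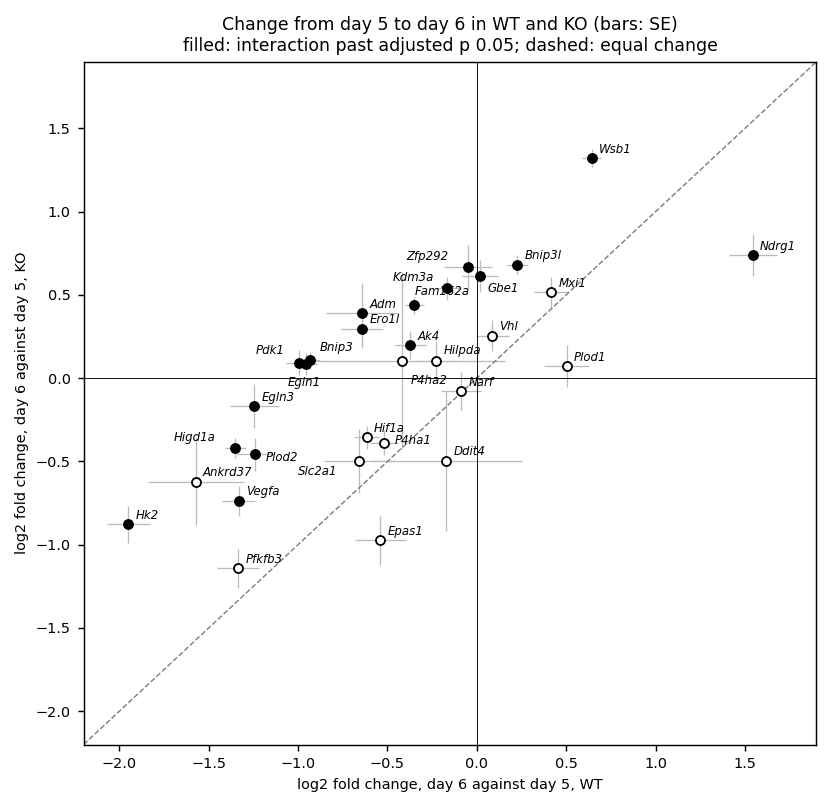
Log2 fold change from day 5 to day 6 in WT (horizontal axis) and in KO (vertical axis) for 31 members, with SE bars, filled where the interaction passed and with a dashed line of equal change. Of the filled points 17 lie above the line and Ndrg1 lies below it.

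By day 9 the dip was gone. Against day 5, 13 members were higher and 0 lower in WT (22.7% of all genes called, members' median 0.15), and likewise 13 and 0 in KO (24.4%, median 0.08). At an unadjusted p under 0.05 there were 16 members in WT and 13 in KO, beside 4275 and 4394 of all 12549 genes. DESeq2 called 14 members in WT, 1 of them lower, and 13 in KO, 0 of them lower. Over all genes it called 2901 and 3114. Ankrd37, an ankyrin repeat protein, was the member lower in WT by DESeq2 and at an unadjusted p under 0.05 (-0.63). With the block Bnip3l (0.14, adjusted p = 0.0167) and Zfp292 (0.33, adjusted p = 0.0350) were also called higher in WT. Adm, Bnip3, Ero1l, Fam162a, Gbe1, Kdm3a, Mxi1, Pdk1 and Wsb1 were called higher in both genotypes. Summed pairs left 6 of 13 calls in WT and 7 of 13 in KO, beside 981 and 1256 of 14063 genes. Of 8 refits that left out 1 library, 6 lost the WT call of Bnip3 (adjusted p up to 0.130), 4 that of Fam162a (0.0612) and 2 that of Mxi1 (0.107). In KO, 6 lost the call of Mxi1 (up to 0.188), 4 that of Adm (0.101), 3 that of Zfp292 (0.126) and 1 that of Egln1 (0.0519). With the correction for GC content and length the KO calls of Ero1l (adjusted p = 0.112), Mxi1 (0.105) and Zfp292 (0.271) were lost. Scaling by library size only also lost the calls of Bnip3 and Fam162a in WT (adjusted p = 0.156 and 0.0803) and of Adm, Egln1, Mxi1 and Zfp292 in KO (0.0616 to 0.164). Ndrg1 tells the genotypes apart here, with 6.71, 9.55, 8.74 and 8.81 CPM on day 5 and 21.7, 19.0, 20.9 and 20.8 CPM on day 9 in WT, against 11.99, 11.8, 14.3 and 11.2 CPM and 11.9, 13.1, 12.6 and 11.4 CPM in KO. WT rose in every library and the KO days overlap (interaction -1.29, SE 0.19, edgeR adjusted p = 3.08e-05). Interactions from day 5 to day 9 were called in 6 members (9.21% of all genes), positive in Bnip3, Bnip3l and Higd1a and negative in Ndrg1, Vegfa and P4ha1. Only that of Ndrg1 was left with pairs summed, beside 40 of 14063 genes. That of Bnip3l was lost with the correction for GC content and length (adjusted p = 0.0876). From day 6 to day 9 the interaction was negative in 17 members and positive in 0 (7.81% of all genes called, median -0.63). With pairs summed 8 were left, beside 50 of 14063 genes. With the block Hif1a (-0.28, adjusted p = 0.0329) and Plod1 (0.51, adjusted p = 0.0390) were also called. The interaction of Zfp292 was lost in 6 of 16 refits that left out 1 library (adjusted p up to 0.0739).

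On day 9 itself, KO against WT went mostly downward. Of 31 members 1 was higher and 7 lower, where 11.8% of all genes were called (6.35% higher, 5.43% lower), and the median was -0.07 against -0.01. Without overlap, 1 member lay above WT and 7 below (14.5% of all genes, 7.35% above and 7.19% below). Only 2 calls, both lower, were left with paired libraries summed (Ndrg1 and Vegfa), beside 141 of 14063 genes. When only the 2 day 9 groups were fitted 5 were left, beside 919 of 11749 genes. Ndrg1, with the CPM given above, was lower in every KO library (-0.76, SE 0.13, edgeR adjusted p = 9.50e-05). Vegfa had 120, 113, 128 and 120 CPM in WT and 81.2, 77.7, 74.0 and 73.6 CPM in KO. The groups stood well apart (-0.65, SE 0.09, edgeR adjusted p = 2.38e-06), and Vegfa was thus higher in KO on day 6 and lower on day 9. Pdk1 had 212, 193, 217 and 207 CPM in WT and 161, 170, 153 and 174 CPM in KO, without overlap (-0.34, SE 0.07, edgeR adjusted p = 0.00172).

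Wsb1 had 545, 478, 554 and 490 CPM in WT and 414, 414, 435 and 402 CPM in KO on day 9, every KO library being lower (-0.31, SE 0.05, edgeR adjusted p = 0.000109). Egln1 had 129, 153, 144 and 151 CPM and 122, 114, 129 and 119 CPM, where the highest KO library came just under the lowest WT library (-0.25, SE 0.06, edgeR adjusted p = 0.00752). With the correction for GC content and length its call was lost (-0.18, adjusted p = 0.0612). Hilpda, a protein of lipid droplets that HIF induces, had 30.8, 34.7, 24.8 and 29.5 CPM and 24.5, 23.5, 19.5 and 23.3 CPM (-0.39, SE 0.12, edgeR adjusted p = 0.0242). Its call was lost without KO library 3, WT library 1 or WT library 2 (adjusted p up to 0.114). That of P4ha1 (-0.24, SE 0.08) was lost without KO library 2 or 4 or WT library 1 or 3 (up to 0.151), and that of Bnip3l, the member called higher (0.18, SE 0.06), in 6 of 8 such refits (up to 0.140). Gbe1 gained a call with the block (-0.26, adjusted p = 0.0589 without and 0.0367 with it). Hif1a (141 to 158 CPM in WT, 125 to 159 in KO), Epas1 (27.5 to 32.4 and 25.6 to 32.7), Vhl (35.7 to 44.3 and 35.9 to 41.8) and Egln3 (21.7 to 24.5 and 20.57 to 23.5) overlapped between genotypes, with log2 fold changes of -0.05 each. On day 9 the summed level of cycling cell genes was 285 to 345 CPM in KO and 260 to 276 CPM in WT, without overlap, and its part was not tested. The oligodendrocyte lineage sum overlapped (75.8 to 101 CPM in KO, 80.8 to 100.2 CPM in WT).

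Before the dip, on days 4 and 5, a small set was lower in KO. On day 5, 5 of 31 members were lower and 1 higher, where 15% of all genes were called (8.76% lower, 6.22% higher), and the median was -0.10 against 0.02. On day 4, 5 of 29 were lower and 0 higher, where 1.59% were called (0.665% lower, 0.927% higher), and the median was -0.14 against 0.00. At an unadjusted p under 0.05 there were 11 members on day 4, beside 1494 of all 11430 genes. Without overlap, 2 members lay above WT and 7 below on day 5 (20.2% of all genes, 9.12% above and 11% below), and 1 above and 7 below on day 4 (7.85%, 4.12% above and 3.73% below). The one above on day 4 was Plod2 (0.38, SE 0.12, edgeR adjusted p = 0.136). Day 4 comes from other libraries and a table of its own. Bnip3, Egln1, Pdk1 and Wsb1 were among the 5 lower on both days, beside Fam162a on day 4 and Higd1a on day 5. All 5 of day 5 were among the 19 members higher in KO on day 6.

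Bnip3 had 144, 142, 167 and 130 CPM in WT and 99.0, 105, 92.2 and 98.8 CPM in KO on day 4, with every KO library lower (-0.56, SE 0.08, edgeR adjusted p = 0.000487). On day 5 it had 363, 364, 362 and 378 CPM in WT and 301, 266, 282 and 270 CPM in KO, again apart (-0.40, SE 0.05, edgeR adjusted p = 2.40e-06). Wsb1 had 560, 561, 570 and 561 CPM in WT and 452, 436, 408 and 417 CPM in KO on day 4 (-0.40, SE 0.05, edgeR adjusted p = 0.000139). It kept that order on day 5, with 375, 357, 376 and 349 against 324, 285, 294 and 305 CPM (-0.27, SE 0.05, edgeR adjusted p = 0.000547). Both genes therefore differed in all libraries of 2 days, by more than the spread within a group.

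Egln1 had 89.9, 92.6, 101 and 99.9 CPM in WT and 83.7, 74.6, 73.0 and 69.4 CPM in KO on day 4 (-0.35, SE 0.09, edgeR adjusted p = 0.0331), and 134, 132, 135 and 144 against 102, 107, 101 and 106 CPM on day 5 (-0.39, SE 0.06, edgeR adjusted p = 5.73e-05). Pdk1 had 77.2, 74.2, 78.7 and 71.9 CPM in WT and 49.8, 68.6, 47.2 and 56.1 CPM in KO on day 4 (-0.44, SE 0.11, edgeR adjusted p = 0.0317), with the day 5 values given above (-0.31, SE 0.07, edgeR adjusted p = 0.00401). The groups did not overlap in any of these, but the day 4 calls of Egln1 and Pdk1 were each lost in 7 of 8 refits that left out 1 library (adjusted p up to 0.119 and 0.121). Fam162a had 135, 136, 133 and 132 CPM in WT and 111, 103, 103 and 99.2 CPM in KO on day 4 (-0.36, SE 0.07, edgeR adjusted p = 0.00766). Higd1a had 464, 441, 439 and 463 CPM in WT and 365, 332, 372 and 348 CPM in KO on day 5 (-0.35, SE 0.06, edgeR adjusted p = 4.13e-05). In both, all KO libraries were below all WT libraries.

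Ndrg1 was the member called higher on day 5, with the CPM given for its time course (0.53, SE 0.14, edgeR adjusted p = 0.00951, or 0.0517 without KO library 3). With pairs summed on day 5, the calls of Bnip3, Egln1 and Higd1a were left and those of Pdk1, Ndrg1 and Wsb1 lost. Of 14063 genes, 297 were then called. Hif1a (129 to 152 CPM in WT and 139 to 152 in KO on day 4, 152 to 170 and 145 to 174 on day 5), Epas1 (8.04 to 9.89 and 9.37 to 10.2, then 24.8 to 34.4 and 24.7 to 38.5), Vhl (36.1 to 45.5 and 34.9 to 41.3, then 35.6 to 43.1 and 36.0 to 39.0) and Egln3 (10.8 to 13.2 and 11.9 to 14.8, then 19.5 to 26.9 and 20.4 to 22.2) overlapped on both days and were not called. The oligodendrocyte lineage sum overlapped on day 4 (66.5 to 95.2 CPM in KO, 71.7 to 88.3 CPM in WT) and was higher in every KO library on day 5 (149 to 168 and 86.8 to 108 CPM). The radial glia and astroglia sum stood apart on day 4 (11433 to 11758 CPM in KO, 11812 to 12371 CPM in WT) and overlapped on day 5, and the part of these sums was not tested. Levels on day 4 and day 5 were scaled in separate tables and are not compared.

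On day 7 under DMSO, Adm and Bnip3 were lower in KO than in WT, and Egln1, Higd1a and Hif1a were higher. Of 30 members 3 were higher and 6 lower (30%), beside 36% of all genes called (16.9% higher, 19.1% lower), with a median of -0.20 against -0.02. Without overlap, 3 members lay above WT and 7 below (31.7% of all genes, 15.1% above and 16.5% below). Adm fell most. It had 13.3, 12.6, 14.4 and 16.8 CPM in WT and 1.74, 1.96, 0.759 and 2.66 CPM in KO, the groups being far apart (-3.00, SE 0.33, edgeR adjusted p = 1.68e-08). Bnip3 had 139, 146, 142 and 144 CPM in WT and 77.9, 79.1, 80.8 and 84.7 CPM in KO, with hardly any spread within a group (-0.83, SE 0.07, edgeR adjusted p = 8.00e-10). Hilpda had 17.6, 17.6, 24.4 and 20.5 CPM in WT and 13.4, 12.5, 14.9 and 14.8 CPM in KO, without overlap (-0.53, SE 0.15, edgeR adjusted p = 0.00601).

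The 3 members higher in KO under DMSO were Egln1, Higd1a and Hif1a. Egln1 had 65.4, 58.3, 53.3 and 58.0 CPM in WT and 83.9, 91.5, 77.3 and 82.9 CPM in KO (0.52, SE 0.09, edgeR adjusted p = 3.00e-05). Higd1a had 201, 202, 221 and 230 CPM in WT and 292, 280, 301 and 316 CPM in KO (0.48, SE 0.07, edgeR adjusted p = 6.03e-06). Hif1a had 114, 110, 101 and 87.2 CPM in WT and 147, 153, 125 and 122 CPM in KO (0.40, SE 0.11, edgeR adjusted p = 0.00419). All KO libraries were above all WT libraries in these 3 genes. Epas1 (4.47 to 6.76 CPM in WT, 4.03 to 11.2 in KO), Vhl (39.9 to 54.4 and 48.0 to 57.1) and Egln3 (6.89 to 10.3 and 5.88 to 8.83) overlapped and were not called. With the correction for GC content and length, Epas1 (0.61, edgeR adjusted p = 0.0454) and Vhl (0.29, edgeR adjusted p = 0.0107) were called higher. Fam162a (-0.19) and Bnip3l (-0.18) were then called lower.

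Narf, a protein that binds prelamin A (-0.36, SE 0.11), P4ha1 (-0.29, SE 0.09) and Wsb1 (-0.30, SE 0.09) were also lower under DMSO. Narf lost its call without WT library 2 (adjusted p = 0.0588) or KO library 1 (0.0705), and with the correction for GC content and length (0.0668). Scaling by library size alone moved the median of all genes to -0.12 and called 3 members higher and 13 lower, with 30.5% of all calls higher in place of 47.0%. The summed level of 5 oligodendrocyte lineage genes was 49.8 to 59.8 CPM in KO and 29.1 to 33.8 CPM in WT under DMSO, with the defining marker Sox10 at 0 in every library, and that of radial glia and astroglia was 15241 to 16359 and 11363 to 12769 CPM. The sum of cycling cell genes overlapped (65.5 to 89.1 CPM in KO, 81.5 to 93.3 CPM in WT). The part of these sums in the members' values was not tested.

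**Figure D5:**
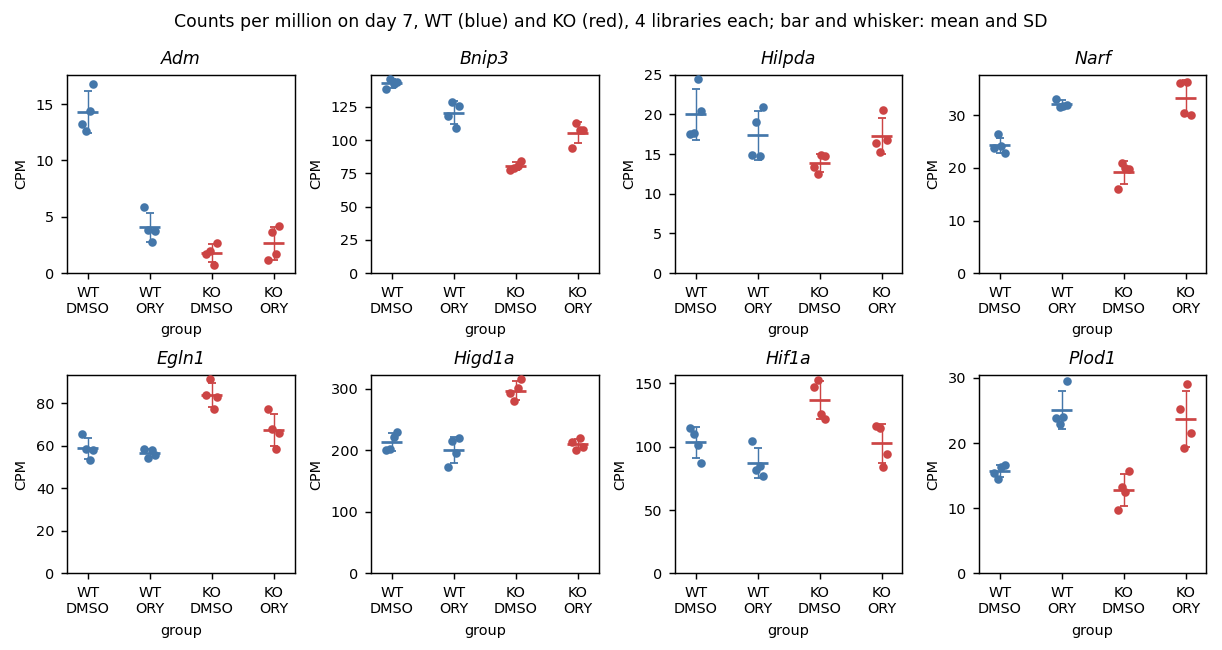
CPM (vertical axis) of 8 members in the 4 libraries of each day 7 group, WT in blue and KO in red, with mean and SD. Adm lies at 12.6 to 16.8 CPM in WT under DMSO and at 0.759 to 5.88 CPM in the other groups, and Narf and Plod1 lie higher under ORY than under DMSO in both genotypes.

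Under ORY, 0 of 30 members were called between KO and WT, where 1.15% of all genes were (0.561% higher, 0.594% lower). Without overlap, 1 member lay above WT and 5 below (9.02% of all genes, 4.39% above and 4.63% below). At an unadjusted p under 0.05 there were 10 members, beside 1723 of all 11952 genes. DESeq2 called 2 members, beside 319 of these genes. They were Vegfa (-0.64, DESeq2 adjusted p = 0.0317) and Kdm3a (-0.28, DESeq2 adjusted p = 0.0415). The members' median was -0.09 against -0.01. Adm had 5.88, 3.86, 2.79 and 3.73 CPM in WT and 1.13, 3.62, 1.73 and 4.18 CPM in KO, with overlap (-0.53, SE 0.33, edgeR adjusted p = 0.472). Egln1 had 58.5, 54.4, 58.3 and 55.7 CPM in WT and 77.2, 67.8, 58.5 and 66.1 CPM in KO, where the third KO library only just cleared WT (0.25, SE 0.09, edgeR adjusted p = 0.171). Hif1a (77.0 to 105 CPM in WT, 84.2 to 116 in KO), Epas1 (4.54 to 9.14 and 5.18 to 8.31), Vhl (48.0 to 53.4 and 45.7 to 53.5) and Egln3 (4.20 to 7.03 and 5.83 to 10.4) overlapped. Under ORY the sum of cycling cell genes stood apart (84.7 to 98.3 CPM in KO, 99.8 to 120 CPM in WT), while those of the oligodendrocyte lineage (36.1 to 43.5 and 35.8 to 43.3 CPM) and of radial glia and astroglia (11306 to 12454 and 11301 to 12440 CPM) overlapped. The endothelial and mural sum also stood apart (44.8 to 50.6 CPM in KO, 30.6 to 42.3 CPM in WT). Their part was not tested.

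Whether ORY acted differently in KO and WT was tested as the interaction on day 7, which called 3 of 30 members against 17.9% of all genes. It was 2.48 for Adm (SE 0.46, edgeR adjusted p = 0.000276), 0.64 for Bnip3 (SE 0.10, edgeR adjusted p = 4.28e-05) and -0.42 for Higd1a (SE 0.10, edgeR adjusted p = 0.00446). ORY lowered Adm in WT (-1.79, SE 0.28, edgeR adjusted p = 5.84e-05), while the difference in KO was 0.69 (SE 0.37, edgeR adjusted p = 0.136). Bnip3 under ORY had 118, 128, 109 and 126 CPM in WT (-0.24, SE 0.07, lost without WT DMSO library 2 or WT ORY library 3 at adjusted p of 0.0555 and 0.0839) and 94.2, 113, 108 and 107 CPM in KO (0.39, SE 0.07). Every KO library was higher under ORY than under DMSO. Higd1a under ORY had 174, 216, 196 and 220 CPM in WT (-0.08, SE 0.07) and 214, 201, 221 and 206 CPM in KO (-0.50, SE 0.07). In KO the ORY values of Higd1a thus lay below all DMSO values, and in WT the treatments overlapped.

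In KO, ORY against DMSO raised 3 members (Bnip3, Narf and Plod1) and lowered 6 (Higd1a, Hif1a, Egln1, Mxi1, Gbe1 and Wsb1), a share of 30% beside 38.7% of all genes (20.3% higher, 18.3% lower). Without overlap there were 4 above and 5 below (35% of all genes, 18.4% above and 16.6% below). In WT it raised 2 (Narf and Plod1) and lowered 4 (Adm, Wsb1, Ak4 and Bnip3), 20% beside 15.1% (8.16% higher, 6.91% lower). Without overlap there were 3 above and 4 below (18% of all genes, 9.65% above and 8.34% below). Plod1 had 15.4, 14.5, 16.3 and 16.6 CPM under DMSO and 23.9, 22.9, 24.01 and 29.5 CPM under ORY in WT, and 9.70, 13.2, 12.5 and 15.8 against 25.3, 19.2, 29.0 and 21.5 CPM in KO. It was higher under ORY in all libraries of both genotypes (0.69, SE 0.14, and 0.90, SE 0.15), and these changes did not differ by the test (interaction 0.20, SE 0.21, edgeR adjusted p = 0.555). Narf rose by 0.39 (SE 0.11) in WT and by 0.79 (SE 0.11) in KO. In KO the calls of Gbe1 (-0.35) and Wsb1 (-0.26) were lost in 4 and 3 of 8 refits that left out 1 library, and in WT that of Ak4 (-0.28) in 6 of 8. With the block, Fam162a (-0.21, adjusted p = 0.00602) and P4ha1 (0.18, adjusted p = 0.0386) were also called in KO. The ORY comparison in KO and that of KO with WT under DMSO share the same KO libraries, so the opposite signs of Bnip3, Egln1, Higd1a and Hif1a in them are no separate evidence.

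Other genes of the system were read from lists fixed with these. Of 30 further HIF targets tested on day 6, 9 were higher in KO and 0 lower (30%, beside 13.1% of all genes, with a median of 0.15), led by the glycolytic enzymes Pgk1 (0.47), Gpi1 (0.53) and Pgam1 (0.57). At an unadjusted p under 0.05 there were 12, beside 3338 of all 12549 genes. On day 5, 1 was higher and 6 lower, 23.3% beside 15% (Pgk1 -0.41, Bhlhe40 -0.38, Stc1 -0.44), and on day 4, 1 of 29 was lower, 3.45% beside 1.59% (Aldoa -0.43). On day 9, 2 were higher and 9 lower, 36.7% beside 11.8% (Bhlhe41 -0.41, Mif -0.44, Slc2a3 -0.37). Under DMSO on day 7, 3 were higher and 16 lower of 29, a share of 65.5% beside 36%, led by Ldha (-0.97), Tpi1 (-0.93) and Slc2a3 (-1.38). Under ORY, 5 were lower and 0 higher, 17.2% beside 1.15% (Tpi1 -0.39, Gapdh -0.38, Ldha -0.34). The difference in share between these targets and the members was not tested.

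Of 17 genes of the HIF machinery, 1 was higher and 1 lower in KO on day 6 (Siah1a 0.33, Rbx1 -0.22), 11.8% beside 13.1% of all genes. Under DMSO on day 7, 7 were higher and 0 lower, 41.2% beside 36%. With p unadjusted and under 0.05 there were 9, beside 5347 of all 11952 genes. The called genes with the smallest p under DMSO were Eloc (0.41) and Rbx1 (0.32), parts of the ubiquitin ligase around Vhl, and Arnt2 (0.47), a beta subunit. On days 5 and 9, 3 and 1 were higher and 3 and 1 lower (35.3% beside 15%, and 11.8% beside 11.8%). On day 4 and under ORY edgeR called 0, beside 1.59% and 1.15%. With p unadjusted and under 0.05 there were 3 and 4, beside 1494 of 11430 and 1723 of 11952 genes.

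Across all 48 libraries and per kilobase of exon, the members with the highest levels were Fam162a (206 CPM per kb), Wsb1 (125), Bnip3l (104), Higd1a (98.2) and Bnip3 (97.7). The lowest of the 31 kept were Ddit4, a brake on mTOR signalling (1.01), and P4ha2 (0.148), and Adm stood at 4.56. Higd1a and Bnip3 overlap in their ranges of 165 to 464 and 77.9 to 432 CPM. Epas1, Vhl, Slc2a1, Pfkfb3, P4ha2, Mxi1, Ankrd37 and Ddit4 were called in none of the 6 comparisons of KO with WT. The SE of Ddit4 (0.40 to 0.45) and of P4ha2 (0.53 to 0.56) leaves wide limits on their differences.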

How the data were processed

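RNA was measured in 48 libraries prepared after the SMART-seq2 method. The submitters' processing notes name bcl2fastq 2.17.1.14, Trimmomatic 0.32, STAR 2.5.2a and the build GRCm38, and the authors deposited raw counts per gene in 3 tables (day 4, days 5, 6 and 9, day 7). The kit marks no strand. Symbols, lengths and GC content came from GENCODE vM21 (37693 of 39017 identifiers matched).

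The 3 tables were analysed separately in edgeR 4.0.16 (R 4.3.3, limma 3.58.1). Genes were filtered with filterByExpr (minimum count 10, minimum total 15), libraries scaled by TMM, and groups compared by edgeR's quasi-likelihood test (older form of the fit), with Benjamini-Hochberg adjustment over all genes tested and a threshold of 0.05. The steps were tested on simulated data. DESeq2 1.42.0 and other settings served as alternatives. Groups were taken from the labels. The members, the further lists and the rules were chosen with earlier results of these data known.

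All members may be named. Values per library were printed for the up to 6 members with the largest absolute log2 fold change among those called in each comparison of KO with WT, and for Hif1a, Epas1, Vhl, Egln1 and Egln3, with ranges where several of these were not called. At most 3 genes per comparison were named from each further list. Values per library of Plod1 and Ndrg1 across other comparisons were added after they had been seen.

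Libraries of a group are numbered 1 to 4, and no source says whether a number is shared between groups. To see if it was, each library's departure from its group mean was correlated across genes with that of the library with its number in the other group. Over all genes tested, none of 16 comparisons had every pair over 0.1 (r -0.0258 to 0.213). A second reading over genes with a mean log2 CPM above 4, chosen after the first, with the unblocked calls and an earlier reading of these data known, had every pair over 0.1 in 7 of 16, among them day 6 (0.171 to 0.243) and day 9 (0.156 to 0.344) between genotypes. Whether the numbers pair the libraries is therefore not settled, and blocked values that change a call in those 7 are given beside the result. Of the marker lists, 1 gene is not reported here and is left out of the sums.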

Additional observations from a re-analysis of the deposited data

Results flagged for a closer look

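Several libraries stood apart from the other 3 of their group by the gap between them. Of 106 groups of 4 examined, 6 did, where chance gives about 1 in 20. WT day 5 library 4 was high for Bnip3 (378.2 CPM, others 362.5 to 363.5) and for Pdk1 (166.2 CPM, others 153.2 to 155.3). WT day 6 library 1 was high for Egln1 (78.07 CPM, others 67.2 to 68.23), KO day 6 library 3 low for Vhl (38.87 CPM, others 46.59 to 47.42), WT day 4 library 3 high for Wsb1 (570.1 CPM, others 559.9 to 561.3), and WT ORY library 1 low for Egln3 (4.197 CPM, others 6.817 to 7.033).

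The effect of genotype or of time differed between groups by the interaction test of edgeR in 44 results, given here as log2 values. From day 5 to day 6, the change in KO minus that in WT passed for 18 members, Egln1 (1.04), Egln3 (1.08), Hk2 (1.07), Pdk1 (1.08), Gbe1 (0.60), Ak4 (0.57), Higd1a (0.93), Fam162a (0.79), Bnip3 (1.04), Bnip3l (0.46), Plod2 (0.78), Ero1l (0.94), Vegfa (0.60), Adm (1.03), Kdm3a (0.71), Zfp292 (0.72), Ndrg1 (-0.81) and Wsb1 (0.68). From day 6 to day 9 it passed for 17 members, Egln1 (-0.90), Egln3 (-1.03), Hk2 (-1.16), Pdk1 (-1.11), Gbe1 (-0.67), Ak4 (-0.84), Higd1a (-0.63), Fam162a (-0.74), Bnip3 (-0.61), Plod2 (-0.69), P4ha1 (-0.58), Ero1l (-0.98), Vegfa (-1.09), Adm (-1.16), Kdm3a (-0.64), Zfp292 (-0.65) and Wsb1 (-0.72). From day 5 to day 9 it passed for 6 members, Higd1a (0.30), Bnip3 (0.43), Bnip3l (0.33), P4ha1 (-0.44), Vegfa (-0.49) and Ndrg1 (-1.29). On day 7, the change with ORY in KO minus that in WT passed for 3 members, Higd1a (-0.42), Bnip3 (0.64) and Adm (2.48). The 3 time interactions share libraries.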

How the results depend on the processing

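No called member result changed direction under any alternative. Of 175 calls over the 16 comparisons, all kept their side of the threshold with DESeq2, with the stricter filter and with the replicate number as a block, while 1 was lost with RLE size factors, 1 with edgeR's current test, 5 of 167 with only the groups compared in the fit, 10 with no filter, 11 with library size only, 12 with the GC and length correction, 8 with the block and that correction, and 54 of 143 with paired libraries summed, which leaves 2 libraries a group. Leaving out 1 library lost 103 of 1752.

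Counts of members called that moved by over 1.5 times were these. With pairs summed they were 3 on day 5 (6 otherwise), 13 on day 6 (20), 2 on day 9 (8), 6 and 7 from day 5 to day 9 in WT and KO (13 each), and 11, 1 and 8 for the interactions from day 5 to 6 (18), day 5 to 9 (6) and day 6 to 9 (17). The counts over all genes with pairs summed stand with these results above. Only the groups compared gave 5 on day 9, beside 919 of 11749 genes. Library size only gave 16 under DMSO (9) and 1 under ORY (0), beside 4534 and 148 of 11952 genes. Under ORY the GC and length correction gave 1 and DESeq2 2, beside 423 and 319 of 11952 genes. With the replicate block the count was 10 on day 5 (6), beside 2511 of 12549 genes. On day 7 it was 7 under ORY (0), 10 for ORY in WT (6) and 6 for the interaction (3). Over all 11952 genes these were 820, 2740 and 3042. With the block and the correction it was 6 under ORY and 9 for that interaction, beside 821 and 3071. In none of these were the numbers taken to pair libraries by either reading, and in the 7 comparisons paired by the second reading the block moved no count by over 1.5 times and changed no call but those given above. For the interaction from day 5 to day 6, which neither reading pairs, Hif1a passed with the block (adjusted p = 0.0387).

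Leaving out 1 library gave 3 to 4 calls on day 4 (5), 5 to 7 on day 5, 18 to 19 on day 6, 5 to 8 on day 9, 9 to 11 under DMSO, 0 to 0 under ORY, 7 to 11 for ORY in KO, 4 to 7 for ORY in WT, and 3 to 4 for their interaction. For day 6 against 5 it gave 22 to 24 in WT and 17 to 20 in KO, for day 9 against 5, 11 to 13 and 9 to 13, and for the interactions 18 to 20, 6 to 6 and 16 to 18. On day 4, on days 5, 6 and 9, and on day 7, P4ha2 reached 10 counts in 0, 12 and 2 libraries, Ankrd37 in 3, 22 and 9 and Ddit4 in 6, 16 and 8. The causes were not tested.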
